A study of Mus musculus with 28 samples.

Results

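The 43 genes described here encode the machinery that copies DNA. They were chosen by symbol, for their function, with earlier results of these data known. They come from the 53564 rows of a deposited expression table of mouse cells. They make up 6 roles: 6 subunits of the origin recognition complex, 9 licensing genes, 8 genes of origin firing and helicase activation, 6 genes of the sliding clamp and its loader, 8 polymerase and primase genes, and 6 genes of lagging-strand processing and single-strand binding. All 43 symbols were found, and all 43 had at least 1 TPM in at least 2 libraries.

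RNA was sequenced from C57BL6 cells on the way from embryonic stem cells (ESCs) to primordial germ cells (PGCs) and into early meiosis, in 8 groups of 2 libraries. RT cells were derived from Terc-rescued ESCs, ST cells from Terc-KO G4 ESCs, which lack the RNA template of telomerase, and LT cells from wild-type ESCs. The labels do not spell out RT, ST and LT. Each kind of ESC was turned into epiblast-like cells over 2 days, and 1 further day of aggregation under germ cell induction (BMP4 with LIF, SCF and EGF) produced the embryoid bodies called 1dEB. PGC-like cells from 4 days of the same induction were aggregated with female Actin-GFP gonadal somatic cells of E12.5 for 1 day in medium with 3 µM retinoic acid, and the GFP-negative cells were sorted as meiocyte-like cells (1dMeioLC). PGCs of E10.5 embryos, sorted on CD61 and SSEA1, were taken through the same culture (PGC-1dMeioLC) or sequenced directly (E10.5PGC). The labels do not say whether the 2 libraries of a group came from separate cultures or embryos, nor how many ESC clones stand behind each line, so p-values measure only the spread between these libraries.

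Before S phase, the origin recognition complex together with Cdc6 and Cdt1 loads the Mcm2 to Mcm7 helicase ring onto origins, and geminin (Gmnn) blocks Cdt1 once replication has begun. Cyclin E, Mcm10, Cdc45 and the GINS complex turn the loaded ring into a moving helicase, after which primase and polymerase alpha start each strand, the RFC loader places the Pcna clamp, and polymerases delta and epsilon extend. Many of these genes are transcribed in a wave at the G1 to S transition under E2F factors, and female mouse germ cells pass through a last S phase as they enter meiosis. In bulk RNA, fewer cells of a kind and less RNA per cell cannot be told apart, and neither can a lower level in every cell and a smaller share of cells in S phase.

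The libraries were compared on scaled TPM, in which the TPM of the nuclear protein-coding genes add up to 1000000 in each library. TPM as deposited gave these genes 27.2% to 29.2% of the total in RT-1dEB, 44.1% to 44.5% in ST-1dEB and 38.7% to 38.9% in LT-1dEB, against 54.4% to 61.3% in the other 5 groups. A small rRNA-like locus on chromosome 17 held 38.3% to 41.0% of the TPM in RT-1dEB. It held 23.9% to 24.7% in ST-1dEB and 27.6% to 27.7% in LT-1dEB. At 1dMeioLC its share was 1.31% to 1.45% in RT, 9.13% to 9.22% in ST and 1.90% to 1.92% in LT, and it was 5.03% to 5.31% in PGC-1dMeioLC and 0.912% to 1.001% in E10.5PGC, so it moved with those comparisons too. Results that turn on this choice are therefore given on both scales. Terc was listed at 0 in all 4 ST libraries, at 1.15 to 12.3 scaled TPM in the 4 RT libraries and at 2.38 to 8.87 in the 4 LT libraries. It was also listed at 0 in both PGC-1dMeioLC libraries, and at 1.55 and 1.59 in E10.5PGC. The summed scaled TPM of 10 germ cell markers (Dppa3, Nanos3, Dazl, Ddx4 and others) was 1904 to 1933 in PGC-1dMeioLC and 6241 to 6244 in E10.5PGC. At 1dMeioLC that sum was 1145 to 1205 in RT, 355 to 373 in ST and 1608 to 1679 in LT, with Dppa3 alone averaging 549 in RT, 50.4 in ST and 838 in LT, and at 1dEB it was 477 to 481 in RT, 306 to 321 in ST and 436 to 466 in LT. Sox2 made the largest part of that sum at 1dEB, averaging 243 in RT, 169 in ST and 221 in LT. Nanos3 averaged 50.5, 30.8 and 12.4 and Dazl 8.67, 5.29 and 7.66, in the same order of lines. None of these 10 markers was at 0 in both libraries of a group.

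The start regions of 4 members are shown because they hold the extremes of what follows: Rpa3 and Cdc6 had the lowest ST to LT changes at 1dEB, the Mcm6 promoter held the most E2F matches of any member promoter, and Rnaseh2a had neither a called change there nor any such letters. Each is the RefSeq promoter of GRCm38.p6, from 250 bases before to 50 bases after the annotated start, written 5′ to 3′ on the strand of the gene. Capitals mark E2F letters, for which 4 words were searched on either strand: the first was TTGGCGC, the second was TTCGCGC, the third was TTCCCGC and the last was TTGCCGC. Overlapping matches run together. The Cdc6 region is chr11:98907901-98908200 (forward strand), the Rpa3 region chr6:8259092-8259391 (reverse strand), the Mcm6 region chr1:128359656-128359955 (reverse strand) and the Rnaseh2a region chr8:84966027-84966326 (reverse strand).
Cdc6: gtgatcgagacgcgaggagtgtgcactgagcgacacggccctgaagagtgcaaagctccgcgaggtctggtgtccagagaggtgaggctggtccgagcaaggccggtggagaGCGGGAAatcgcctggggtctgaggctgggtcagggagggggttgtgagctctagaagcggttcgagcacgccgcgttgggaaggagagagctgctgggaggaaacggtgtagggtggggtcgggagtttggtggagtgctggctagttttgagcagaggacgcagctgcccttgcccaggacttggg
Rpa3: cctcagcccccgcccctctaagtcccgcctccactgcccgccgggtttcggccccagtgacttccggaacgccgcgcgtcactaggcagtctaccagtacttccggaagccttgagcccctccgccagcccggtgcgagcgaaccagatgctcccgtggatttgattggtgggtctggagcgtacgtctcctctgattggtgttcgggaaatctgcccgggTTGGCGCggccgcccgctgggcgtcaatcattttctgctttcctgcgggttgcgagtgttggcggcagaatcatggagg
Mcm6: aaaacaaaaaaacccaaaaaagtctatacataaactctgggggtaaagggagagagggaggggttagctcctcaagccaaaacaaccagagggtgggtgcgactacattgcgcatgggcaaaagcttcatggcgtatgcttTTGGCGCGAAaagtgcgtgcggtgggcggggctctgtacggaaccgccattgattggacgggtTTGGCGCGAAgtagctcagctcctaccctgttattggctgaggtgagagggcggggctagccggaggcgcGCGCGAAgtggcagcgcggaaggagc
Rnaseh2a: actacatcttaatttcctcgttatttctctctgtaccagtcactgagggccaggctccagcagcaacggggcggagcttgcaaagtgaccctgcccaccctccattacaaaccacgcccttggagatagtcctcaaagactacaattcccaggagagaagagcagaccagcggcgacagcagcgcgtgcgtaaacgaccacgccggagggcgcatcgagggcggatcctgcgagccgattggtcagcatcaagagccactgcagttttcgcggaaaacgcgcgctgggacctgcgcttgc

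RefSeq promoters were matched for 34 of the 43 members, 42 promoters in all. E2F letters occurred in 23 of the 42, or 54.76%, against 12.11% of 21262 promoters of protein-coding genes and 9.57% of all 32851. The CCAAT box occurred in 57.14% of member promoters and 38.19% of those of protein-coding genes. TTTGAA, the letters of the CHR element of later cell-cycle genes, occurred in 11.9% of member promoters and 15.99% of those of protein-coding genes. Within a single promoter, Mcm6 had 5 E2F matches, Pola1 had 4, and Mcm3, Mcm5 and 1 of the 2 Mcm7 promoters had 3 each, while Cdc6 and Rpa3 had 1 each. No E2F letters occurred in either promoter of Pold2 and Orc2 or in those of Pcna, Ccne1, Rpa1, Mcm2, Mcm10, Cdc45, Orc6, Pola2 and Rfc5. These genes fell at 1dEB in ST against LT, as 40 of the 43 members did. Of the 5 promoters of members not called there 1 had them. In ST against LT at 1dMeioLC they occurred in 43.75% of 16 promoters of lower members and 61.54% of the 26 others. Whether these letters go with a change was not tested. A match describes letters only.

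The first comparison set the Terc-KO line against wild type in embryoid bodies. In ST-1dEB cells 40 of the 43 genes fell relative to LT-1dEB cells and 0 rose (limma, Benjamini-Hochberg adjusted p under 0.05), where 18.8% of all 21935 genes tested were called lower and 22.0% higher. No member was higher at an unadjusted p under 0.05 either. The median log2 change was −0.76 over the members and −0.00 over all genes tested. On TPM as deposited 36 members fell and none rose, with 11.6% and 26.7% of all genes called lower and higher, and the medians were −0.56 and 0.10. Every role took part: all 9 licensing genes, all 8 firing genes, all 6 clamp and loader genes and all 8 polymerase genes fell, with 5 of 6 lagging-strand genes and 4 of 6 origin recognition genes.

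Rpa3, the smallest subunit of the single-strand binding protein RPA, fell most. It had 63.2 and 54.9 scaled TPM in ST-1dEB, against 219 and 195 in LT-1dEB. Both ST libraries lay far below both LT libraries, and the log2 change was −1.79 (SE 0.07, limma adjusted p = 3e-08). Rpa1, the large DNA-binding subunit, changed by −0.94 and Rpa2 by −0.41, so the 3 subunits of the same trimer fell by unequal amounts.

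Cdc6, the ATPase that brings the helicase to the origin, had 11.5 and 13.8 scaled TPM in ST-1dEB, against 37.8 and 39.0 in LT-1dEB. The ST levels did not reach even the lower LT value, and the log2 change was −1.53 (SE 0.12, limma adjusted p = 2.6e-06). Gins1, a GINS subunit, had 37.5 and 37.5 in ST-1dEB, against 107 and 97.1 in LT-1dEB. Its change was −1.42 (SE 0.09, limma adjusted p = 8.6e-07), again with no overlap between the groups. Pold2, the accessory subunit of polymerase delta, changed by −1.27 and geminin by −1.07. With the 3 genes above they were the 5 members whose log2 change was below −1.

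All 6 subunits of the helicase ring fell, by between −0.92 (Mcm5) and −0.62 (Mcm6). GINS subunits ranged from −1.42 for Gins1 to −0.47 for Gins2. Gins2 shares 67.3% of its exon bases with Gse1 on the opposite strand, which was listed at 17.95 and 18.39 scaled TPM in ST-1dEB and 17.71 and 19.99 in LT-1dEB, and whether reads were assigned by strand was not stated. Cyclin E1 (Ccne1) changed by −0.88 and cyclin E2 (Ccne2) by −0.53. Pcna changed by −0.84, while its loader subunits lay between −0.66 (Rfc2) and −0.23 (Rfc5). Polymerases and primase had the lowest median of the roles, −0.90, with every member at or below −0.65.

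The 3 members that did not pass the test were Orc4 at 0.13 and Orc5 at −0.24, both origin recognition subunits, and Rnaseh2a, the catalytic subunit of the RNase H2 enzyme that removes RNA from DNA, at −0.08. Rnaseh2a had 86.2 and 84.6 scaled TPM in ST-1dEB, against 85.2 and 95.2 in LT-1dEB, and the ranges overlapped. Orc3, Cdt1, Cdc45 and Rfc5 fell on the scaled values and were not called on TPM as deposited, where their changes were −0.17, −0.13, −0.32 and −0.04. Each of these 4 calls was also lost without any 1 of 2 or 3 single libraries, with adjusted p between 0.059 and 0.16.

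**Figure D1:**
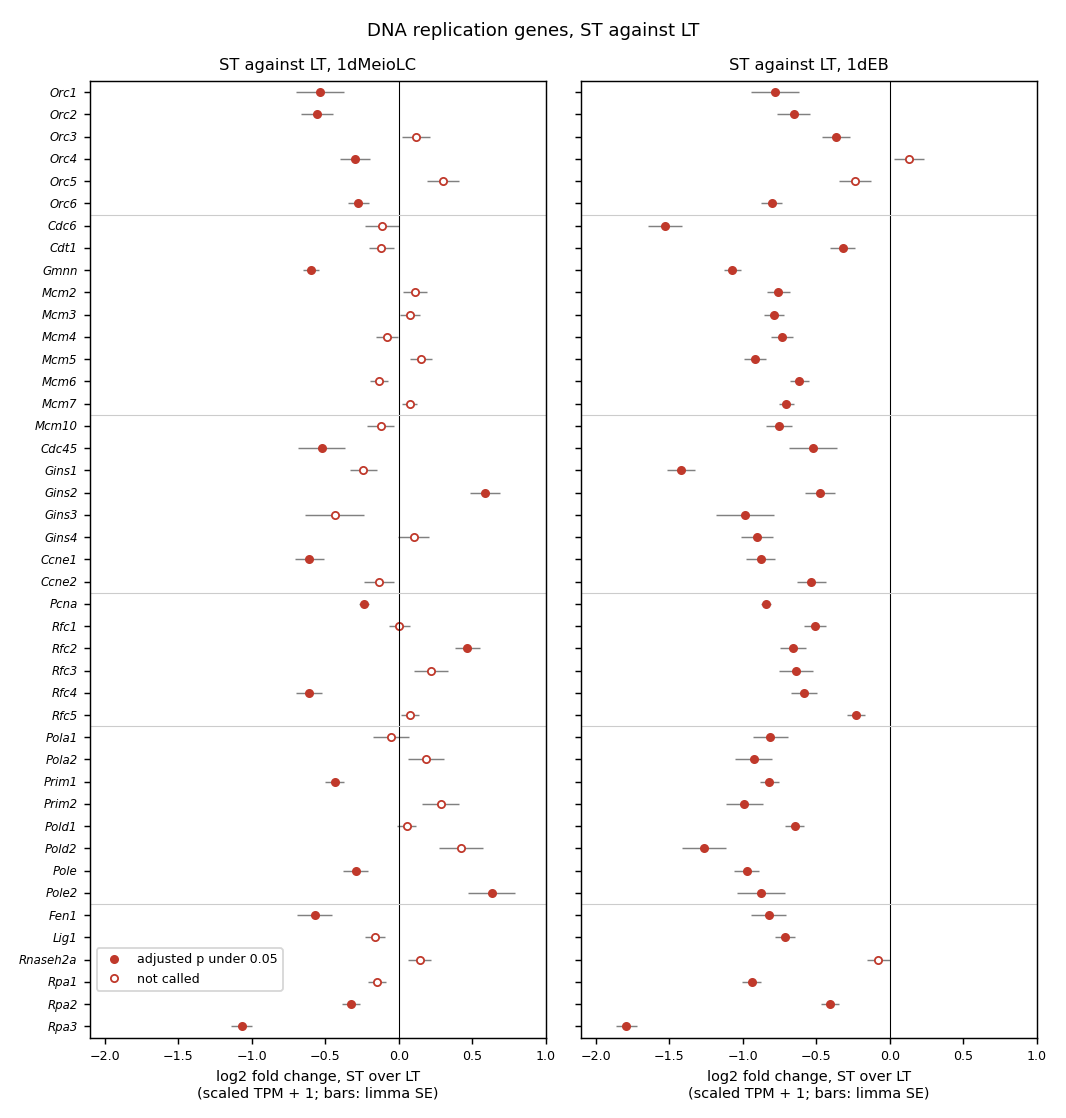
Log2 fold change of each of the 43 genes in ST over LT at 1dMeioLC (left) and 1dEB (right), with limma standard errors, in the order of the 6 roles; filled points passed an adjusted p of 0.05. At 1dEB 40 points are filled and all of those lie left of 0, while at 1dMeioLC 14 filled points lie left and 3 right of 0.

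Genes that work beside the machinery were read in the same libraries, from lists also chosen with earlier results of these data known. Of 21 other replisome factors 18 fell and 1 rose, and as deposited 16 fell and 2 rose. Of 10 nucleotide supply genes 9 fell and 0 rose on both scales. Of 10 genes of chromatin assembly behind the fork 8 fell and 0 rose, and as deposited 7 and 0. Of all genes 18.8% were called lower and 22.0% higher, and as deposited 11.6% and 26.7%. Dna2, a nuclease and helicase of Okazaki fragment ends, changed by −1.62, Wdhd1, which links helicase and polymerase alpha, by −1.25, thymidine kinase Tk1 by −1.43 and ribonucleotide reductase subunit Rrm2 by −0.94. The histone chaperone Asf1b changed by −1.24, Uhrf1, which brings the maintenance DNA methyltransferase to new DNA, by −0.84, and the FACT subunit Supt16 by −0.83. The exception on scaled values was Pold4, the smallest subunit of polymerase delta. It had 147 and 169 scaled TPM in ST-1dEB, against 29.9 and 22.4 in LT-1dEB. Its log2 change of 2.56 (SE 0.22, limma adjusted p = 6.9e-06) ran opposite to Pold1 at −0.65 and Pold2 at −1.27, subunits of the same enzyme.

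Of 24 genes of G1 to S control 6 rose and 7 fell, and as deposited 7 rose and 6 fell. Beside them 22.0% of all genes were called higher and 18.8% lower, and as deposited 26.7% and 11.6%. Cdkn1a, the cyclin-dependent kinase inhibitor p21, had 1874 and 1924 scaled TPM in ST-1dEB, against 201 and 199 in LT-1dEB, a log2 change of 3.24 (SE 0.06, limma adjusted p = 2e-10). The D-type cyclins Ccnd1 and Ccnd2 rose by 1.28 and 0.95. Mki67, a marker of cycling cells, had 16.3 and 17.8 in ST-1dEB, against 33.0 and 31.1 in LT-1dEB, a change of −0.87 (SE 0.11, limma adjusted p = 9.9e-05).

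Markers of another cell kind moved with this comparison. All 10 fibroblast and stroma markers rose in ST-1dEB, with a summed level of 1343 to 1363 scaled TPM in ST-1dEB, 720 to 735 in RT-1dEB and 71.9 to 76.3 in LT-1dEB, and none of the 10 was at 0 in both libraries of these groups. In this comparison 22.0% of all genes were called higher and 18.8% lower. Of the 10 germ cell markers 3 rose and 6 fell, and as deposited 3 and 4. Of 10 gonadal somatic markers 5 rose and 1 fell, with sums of 75.2 to 80.4 in ST-1dEB and 50.5 to 57.5 in LT-1dEB. Of 9 blood and endothelium markers tested 1 rose and 2 fell, and as deposited 1 and 1. The part of these cells in the fall of the replication genes was not tested.

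The next question was how far the rescued line differed at this stage, and here the answer depended on the scale. Relative to ST-1dEB, RT-1dEB had 27 members higher and 3 lower on scaled values, with 18.6% and 17.0% of all genes called in those directions. On TPM as deposited 2 were higher and 21 lower, with 5.14% and 44.6% of all genes. The median over all genes moved between these scales, 0.04 scaled and −0.38 as deposited, and the member medians were 0.33 and −0.29. Both member medians thus stood above the all-gene median of their scale.

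Only 5 members were called the same way on both scales. Mcm5 had 197 and 179 scaled TPM in RT-1dEB, against 93.6 and 105 in ST-1dEB, and changed by 0.91 scaled and 0.26 as deposited. Rfc2, a clamp loader subunit, had 77.7 and 78.7 in RT-1dEB, against 40.8 and 39.7 in ST-1dEB, and changed by 0.94 and 0.29. Both RT libraries were above both ST libraries for each of these 2 genes.

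Ccne1, Rpa2 and Rfc3 were lower in RT-1dEB than in ST-1dEB on both scales, though TPM as deposited moves every RT to ST change downward here. Ccne1, which with Cdk2 drives entry into S phase, had 57.1 and 49.8 scaled TPM in RT-1dEB, against 80.7 and 71.3 in ST-1dEB, and changed by −0.50 scaled and −1.11 as deposited. Rpa2 changed by −0.57 and −1.18, and Rfc3 by −0.40 and −0.96, though the scaled call of Rfc3 was lost without ST-1dEB replicate 1 or either RT-1dEB library (adjusted p 0.052 to 0.17). A further 8 members were higher scaled and lower as deposited, among them Pcna (0.17 and −0.47), Gmnn (0.28 and −0.36) and Rpa3 (0.22 and −0.41). The scaled call of Rpa3 was lost without ST-1dEB replicate 2 or either RT-1dEB library (adjusted p 0.083 to 0.25).

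Against LT-1dEB, RT-1dEB had 25 members lower and 2 higher, where 14.4% of all genes were called lower and 23.5% higher. On TPM as deposited 41 were lower and none higher, with 30.9% and 10.7% of all genes. The all-gene median was 0.10 scaled and −0.17 as deposited, and the member median −0.29 and −0.73. The same 25 were lower on both scales. TPM as deposited moves every RT to LT change downward here, so this overlap adds no support. This comparison shares the LT libraries with ST against LT and is given beside it for the members that were lowest there. Rpa3 changed by −1.57 in RT and −1.79 in ST, Cdc6 by −1.29 and −1.53, and Gins1 by −1.18 and −1.42, all relative to LT-1dEB. In scaled TPM Rpa3 had 68.1 and 69.7 in RT-1dEB, Cdc6 had 15.5 and 14.8, and Gins1 had 44.8 and 43.9.

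Ccne1 was lower still in the rescued line, at −1.38 in RT against −0.88 in ST, as were Rfc3 at −1.03 against −0.64 and Rpa2 at −0.98 against −0.41. The direct comparison of RT with ST for these genes is given above. Among members not called between RT-1dEB and LT-1dEB on scaled values were Mcm5 at −0.00 (SE 0.08), Mcm7 at 0.03 (SE 0.05), Cdt1 at 0.03 (SE 0.09) and Pold1, the catalytic subunit of polymerase delta, at 0.09. On TPM as deposited these 4 changed by −0.46, −0.42, −0.42 and −0.36 and were called lower. Orc3 at 0.28 and Rfc2 at 0.28 were the 2 members called higher on scaled values, and they stood at −0.15 and −0.17, not called, as deposited; each lost its call without any of 3 single libraries. Cdkn1a stood between the other lines, at 998 and 1007 in RT-1dEB.

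**Figure D2:**
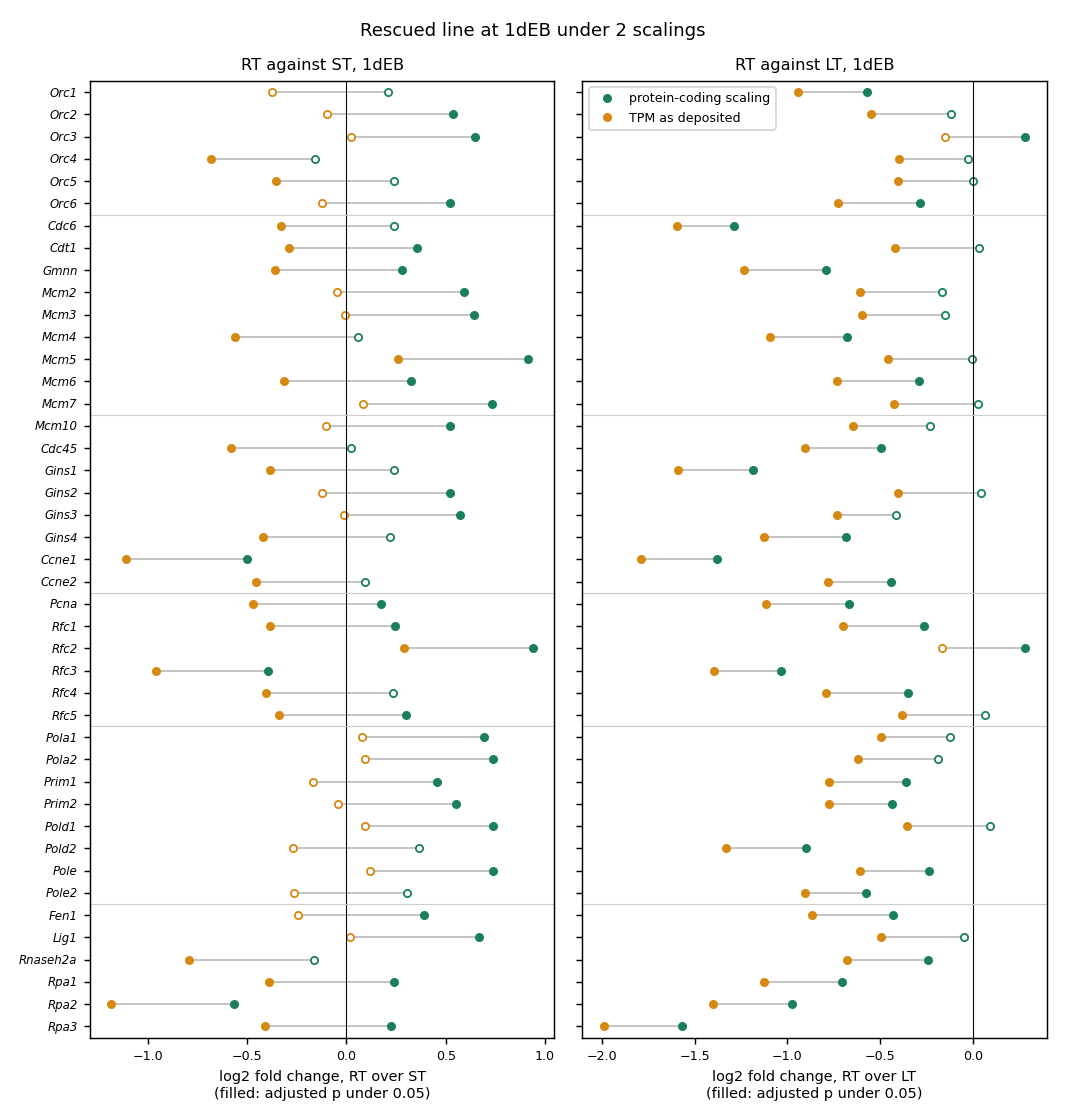
Log2 fold change of each gene at 1dEB in RT over ST (left) and RT over LT (right), with protein-coding scaling in green and TPM as deposited in orange; filled points passed an adjusted p of 0.05 and grey lines join the 2 values of a gene. Against ST the 8 genes with filled points on both sides of 0 change direction with the scale, while against LT the same 25 genes are lower on both. In both panels TPM as deposited moves every change downward, so lower calls could not reverse.

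In meiocyte-like cells the difference between ST and LT was smaller and split by gene. ST-1dMeioLC cells had 14 members lower and 3 higher than LT-1dMeioLC cells, where 13.8% of all genes were called lower and 20.1% higher. All 17 calls held on TPM as deposited, on which 18 were lower and 3 higher, with 17.7% and 17.4% of all genes. The member median was −0.12, against 0.01 over all genes. The helicase ring was not called: Mcm2 to Mcm7 lay between −0.13 and 0.15 on scaled values, and 1 of them, Mcm6, was called lower as deposited (−0.23).

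Rpa3 was again the lowest member. It had 253 and 247 scaled TPM in ST-1dMeioLC, against 544 and 507 in LT-1dMeioLC, with no overlap and a log2 change of −1.07 (SE 0.07, limma adjusted p = 5.6e-06). Rfc4, a clamp loader subunit, had 217 and 239 in ST-1dMeioLC, against 354 and 343 in LT-1dMeioLC. It changed by −0.61 (SE 0.09, limma adjusted p = 0.00052), and both ST libraries were below both LT libraries. Ccne1 had 12.8 and 15.2 in ST-1dMeioLC, against 22.4 and 21.1 in LT-1dMeioLC, a change of −0.61 (SE 0.10, limma adjusted p = 0.0013).

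Other members lower in ST-1dMeioLC were Gmnn at −0.60, Fen1, the flap nuclease of Okazaki fragments, at −0.57, the primase subunit Prim1 at −0.44, Rpa2 at −0.33 and Pcna at −0.24. The origin recognition complex contributed 4 of the 14, Orc1, Orc2, Orc4 and Orc6. Of these, Orc1, Orc4 and Orc6 lost their calls without 1 or more single libraries, as did Cdc45 and Pole; their adjusted p then ranged up to 0.2. Orc1, the subunit whose level cycles, had 10.7 and 8.34 scaled TPM in ST-1dMeioLC, against 15.2 and 13.2 in LT-1dMeioLC. Fen1 shares 78.8% of its exon bases with the antisense gene Gm10143, which was listed at 16.96 and 18.5 in ST-1dMeioLC and 28.3 and 27.5 in LT-1dMeioLC, so reads of these genes cannot be told apart here.

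The 3 members higher in ST-1dMeioLC belong to 3 roles. Gins2 had 77.7 and 75.7 scaled TPM in ST-1dMeioLC, against 50.4 and 51.1 in LT-1dMeioLC, a change of 0.59 (SE 0.10, limma adjusted p = 0.0016). Its opposite-strand neighbour Gse1 was at 12.3 and 9.91 in ST-1dMeioLC and 6.88 and 7.09 in LT-1dMeioLC, and its part in the Gins2 value was not tested. Pole2, the second subunit of polymerase epsilon, had 26.3 and 28.0 in ST-1dMeioLC, against 16.2 and 18.2 in LT-1dMeioLC, and Rfc2 had 44.1 and 42.5 in ST-1dMeioLC, against 33.0 and 29.2 in LT-1dMeioLC. Their changes were 0.63 (limma adjusted p = 0.013) and 0.47 (limma adjusted p = 0.0025), with no overlap in either gene; the Pole2 call was lost without LT-1dMeioLC replicate 1 or ST-1dMeioLC replicate 2 (adjusted p 0.08 and 0.065). Thus within the clamp loader Rfc2 rose and Rfc4 fell, and within polymerase epsilon Pole2 rose and Pole fell by 0.29.

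Companion genes were also split at 1dMeioLC, where 20.1% of all genes were called higher and 13.8% lower. Of 21 other replisome factors 3 rose and 7 fell, and as deposited 0 rose and 8 fell, with the helicase Recql4 at −1.34, Cdc7, a kinase that triggers origin firing, at −0.91 and Mcmbp, a binding partner of the helicase ring, at −0.58. Of 10 nucleotide supply genes 2 rose and 3 fell, of 10 chromatin assembly genes 4 rose and 1 fell, and of 24 G1 to S control genes 6 rose and 2 fell. Supt16 stood at 0.75 and Uhrf1 at 0.55 here, while Asf1b was at −0.56. Cdkn1a had 125 and 134 scaled TPM in ST-1dMeioLC, against 96.5 and 88.7 in LT-1dMeioLC, and Mki67 did not pass the test (−0.15).

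Of the 10 germ cell markers 5 fell and 2 rose in ST-1dMeioLC relative to LT-1dMeioLC, and their summed level was 355 to 373 in ST against 1608 to 1679 in LT. The fibroblast and stroma markers summed to 743 to 747 in ST and 576 to 598 in LT, with 4 higher and 4 lower, and Thy1 was at 0 in both ST libraries. The gonadal somatic markers summed to 401 to 409 in ST and 317 to 329 in LT, with 3 higher and 2 lower. The blood and endothelium markers summed to 2672 to 2686 in ST and 1986 to 2047 in LT. Of 9 tested 0 were higher and 4 lower, and Cdh5 was at 0 in both ST libraries. Hba-a1, not called, made most of both sums, averaging 2586 in ST and 1828 in LT. Tyrobp averaged 19.6 in ST and 59.1 in LT, and Cd68 24.4 and 64.7. The part of these markers' cells in the member changes was not tested.

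In the rescued line at 1dMeioLC, 13 members were higher and 3 lower than in ST, where 10.4% of all genes were called higher and 24.1% lower. On TPM as deposited 17 were higher and 1 lower, with 13.1% and 20.2% of all genes. The same 13 were among those 17, and of Rfc5, Pola2 and Prim2, lower on scaled values, Prim2 was lower there too. The Prim2 call was lost without ST-1dMeioLC replicate 2 or RT-1dMeioLC replicate 2 (adjusted p 0.087 and 0.12). Ccne1 had 25.1 and 28.4 scaled TPM in RT-1dMeioLC, against 12.8 and 15.2 in ST-1dMeioLC, a log2 change of 0.89 (SE 0.10, limma adjusted p = 0.00014). Rpa3 had 459 and 469 in RT-1dMeioLC, against 253 and 247 in ST-1dMeioLC, a change of 0.89 (SE 0.07, limma adjusted p = 2.1e-05). Rfc4 rose by 0.60, Rpa2 by 0.50, Pcna by 0.43 and Gmnn by 0.43. The other 7 of the 13 were Orc2, Orc6, Cdc6, Prim1, Pold1, Fen1 and Rpa1, of which Cdc6, Pold1 and Rpa1 were not called between ST and LT. RT against ST and ST against LT share the ST libraries. On scaled values 6 of 10 germ cell markers were higher and 2 lower in RT-1dMeioLC than in ST-1dMeioLC. Of 10 gonadal somatic markers 1 was higher and 5 lower, and of 10 fibroblast and stroma markers 4 and 5. Of 9 blood and endothelium markers tested 3 were higher and 1 lower. The part of these markers' cells in the RT to ST changes was not tested.

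Against LT, RT-1dMeioLC had 4 members higher and 3 lower, where 5.75% and 10.8% of all genes were called. As deposited 4 were higher and 2 lower, with 6.2% and 12.4% of all genes. The 4 higher ones on both scales were Gins2 (0.36), Pcna (0.19), Pold1 (0.33) and Rpa1 (0.34). Ccne2 (−0.39), Pole (−0.30) and Rfc5 were lower. With its near-identical copy Pcna-ps2 added, Pcna stood at 439 and 415 scaled TPM in RT, against 463 and 453 in LT, opposite in direction to Pcna alone. Rpa3 was not called at −0.18 (SE 0.07). The calls of Gins2 and Pole were each lost without any 1 of the 4 libraries, and those of Pcna, Pold1 and Ccne2 without 1 to 3 of them.

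The difference between the stages in the ST minus LT effect was tested directly. At 1dMeioLC the effect was higher, that is less negative or more positive, than at 1dEB for 32 members and lower for 1, where 18.9% and 18.8% of all genes were called in those directions. As deposited these counts were 23 and 1, with 12.2% and 26.4% of all genes and an all-gene median of −0.18. The median of this difference was 0.61 over the members and 0.005 over all genes on scaled values. Pold2 differed most, by 1.69 (0.43, not called, at 1dMeioLC and −1.27 at 1dEB), followed by Pole2 at 1.51, Cdc6 at 1.41 and Prim2 at 1.27. All 8 polymerase and primase genes and 8 of 9 licensing genes were among the 32. Ccne1, Rfc4, Fen1, Rpa2, Orc1 and Orc2 were among the 10 for which no difference between stages was called.

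**Figure D3:**
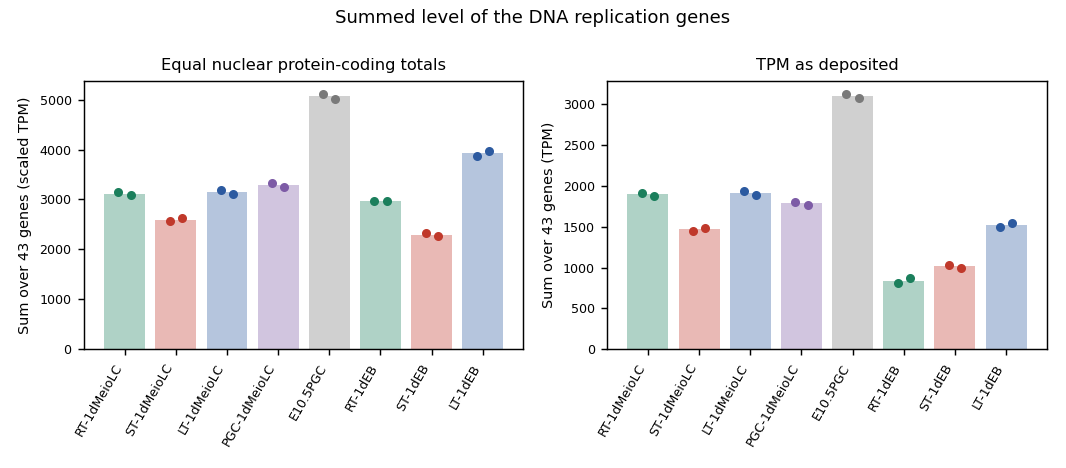
Summed level of the 43 genes in each library (points) with group means (bars), on scaled TPM (left) and on TPM as deposited (right). On scaled TPM E10.5PGC stands highest at 5022 to 5117 and ST lowest within each stage; as deposited RT-1dEB is the lowest group.

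Summed over the 43 genes, scaled TPM came to 3087 to 3144 in RT-1dMeioLC, 2559 to 2627 in ST-1dMeioLC and 3105 to 3196 in LT-1dMeioLC. At 1dEB the sums were 2959 to 2977 in RT, 2260 to 2320 in ST and 3879 to 3980 in LT. PGC-1dMeioLC had 3257 to 3320 and E10.5PGC 5022 to 5117. The replicate libraries of each group lay close together, and among the lines ST was lowest at both stages. At 1dMeioLC a few abundant genes carried the difference: the ST mean sum minus the LT mean sum was −557, of which Rpa3 made −276, Rfc4 −121, Gmnn −91.0 and Pcna −39.1. In deposited TPM the order at 1dEB changed, with 805 to 868 in RT, 998 to 1031 in ST and 1501 to 1546 in LT.

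The passage of stage changed which members led. Comparing 1dMeioLC with 1dEB, 15 members were higher and 23 lower in RT (23.5% and 45.1% of all genes), 18 higher and 17 lower in ST (25.5% and 37.5%), and 7 higher and 27 lower in LT (27.6% and 37.5%). As deposited the counts were 30 and 6 in RT (43.7% and 22.0% of all genes), 23 and 12 in ST (33.3% and 29.6%), and 17 and 18 in LT (40.4% and 24.0%). The all-gene medians in RT, ST and LT were −0.45, −0.21 and −0.17 scaled and 0.30, 0.00 and 0.19 as deposited. Markers of other cells moved with the stage: of 10 gonadal somatic markers 8 were higher at 1dMeioLC in RT, 9 higher and 1 lower in ST and 9 higher in LT, with median log2 changes of 2.76, 3.00 and 3.74. Of 10 fibroblast and stroma markers 7 were higher and 2 lower in RT, 3 and 5 in ST and 9 and 1 in LT, and of 9 blood and endothelium markers 7 and 1 in RT, 6 and 2 in ST and 8 and 1 in LT. Of 10 germ cell markers 5 were higher and 3 lower in RT, 4 and 3 in ST and 7 and 3 in LT. Their part in the member changes was not tested.

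The following members were called alike on both scales in all 3 lines. Orc4, Gmnn, Mcm4, Ccne2, Rfc3, Rfc4 and Rpa3 were higher at 1dMeioLC, and Cdt1, Mcm7, Mcm10, Pola2, Pold1 and Lig1 were lower.

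Rpa3 was higher at 1dMeioLC by 2.73 in RT, 2.07 in ST and 1.34 in LT. Rfc4 was higher by 1.87, 1.503 and 1.53 and Ccne2 by 1.49, 1.84 and 1.44, in the same order of lines. Mcm10, which helps activate the helicase, was lower, with changes of −2.04, −1.69 and −2.32, and Mcm7 had −1.84, −1.04 and −1.82. Pold1 changed by −1.54 in ST and −2.24 in LT. Cdc6 fell by 2.16 in LT, while in RT its change was −0.53 scaled and 0.46 as deposited, opposite in sign. Ccne1 fell by 2.63 in LT and by 2.36 in ST, and in RT changed by −0.97 scaled and 0.11, not called, as deposited. The Rfc3 call in LT (0.31) was lost without LT-1dEB replicate 1 or LT-1dMeioLC replicate 1.

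Ratios of members within a library do not depend on the scale, and the following pairs were picked after their values were seen, so they carry no test. Mcm4 to Mcm7 was 1.49 to 1.72 across the 6 1dMeioLC libraries of the lines, 2.14 and 2.33 in PGC-1dMeioLC and 1.09 and 1.17 in E10.5PGC, against 0.224 to 0.399 across the 6 1dEB libraries. These 2 proteins enter the same ring in equal numbers, and their transcripts stood in the opposite order at the 2 stages. Mcm7 was the highest and Mcm4 the lowest of the 6 in all 1dEB libraries, while Mcm2 was the lowest in all other libraries and Mcm4 the highest in all of those except ST-1dMeioLC replicate 2, where Mcm3 was.

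Ccne1 to Ccne2 was 0.290 to 0.770 across the 6 1dMeioLC libraries of the lines and 0.452 and 0.461 in PGC-1dMeioLC. It was 2.23 and 2.33 in E10.5PGC and 3.56 to 7.93 across the 1dEB libraries. Cyclin E1 transcript was thus above cyclin E2 in E10.5PGC and 1dEB and below it in every library of the meiocyte-like culture. Ccne2 shares 17.4% of its exon bases with Ints8 on the opposite strand.

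Gmnn to Cdt1, the inhibitor over its target, was 5.36 to 8.86 across all 1dMeioLC, PGC-1dMeioLC and E10.5PGC libraries. At 1dEB it was 0.862 and 0.885 in RT, 0.926 and 0.913 in ST and 1.56 and 1.54 in LT. Both RT and ST libraries were below 1 and both LT libraries above it. Rpa3 to Rpa1 likewise was 1.20 to 1.30 in RT-1dEB, 1.16 to 1.38 in ST-1dEB and 2.10 to 2.49 in LT-1dEB. At 1dMeioLC it was 8.62 to 9.27 in RT, 6.56 to 7.03 in ST and 12.51 to 13.2 in LT. On the Rpa3 ratio RT-1dEB overlapped ST-1dEB and on the Gmnn ratio it lay below, and both groups lay below LT-1dEB.

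**Figure D4:**
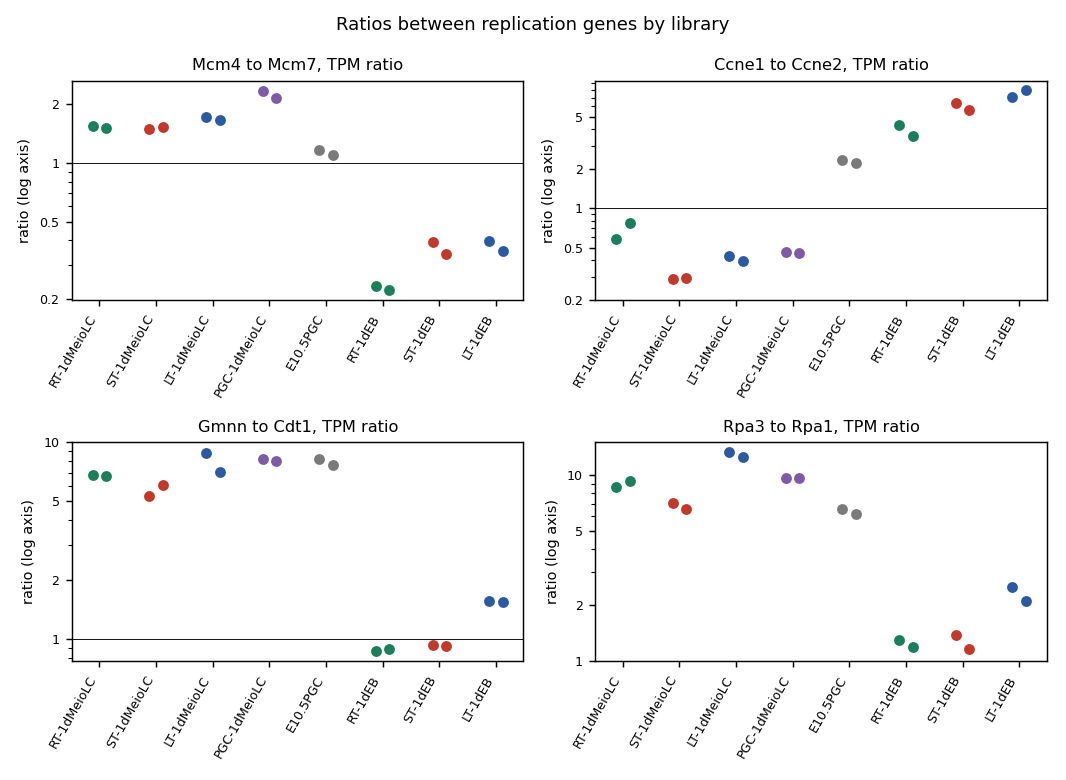
Ratio of 2 members' TPM in each library on a log axis, for Mcm4 to Mcm7, Ccne1 to Ccne2, Gmnn to Cdt1 and Rpa3 to Rpa1, with the groups along the horizontal axis. All 6 1dEB libraries lie at or below 0.399 for Mcm4 to Mcm7 and at or above 3.56 for Ccne1 to Ccne2, apart from all libraries of the other groups.

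The germ cells taken from embryos went through the same culture. PGC-1dMeioLC had 31 members lower and 4 higher than E10.5PGC, where 15.0% of all genes were called lower and 38.9% higher; all 35 calls held as deposited, where 18.9% and 34.7% were called. The member median was −0.72 scaled and −0.89 as deposited, and the all-gene median 0.28 and 0.13. Mcm10, Rpa2 and Gins4 fell by 1.28, 1.27 and 1.26, Mcm7 by 1.24 and Rnaseh2a by 1.21. Mcm7 had 65.3 and 65.5 scaled TPM in PGC-1dMeioLC, against 153 and 159 in E10.5PGC, with no overlap. Mcm4 fell by only 0.27, a call lost without E10.5PGC replicate 1 or PGC-1dMeioLC replicate 2, and Rpa3 was not called at −0.18, though it was lower as deposited (−0.35).

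The 4 members higher after the culture were Ccne2 (1.20), Gins3 (0.90), Pole2 (0.73) and Gins2 (0.50). The opposite-strand neighbour of Gins2, Gse1, was at 6.78 and 8.11 scaled TPM in PGC-1dMeioLC and 3.28 and 3.12 in E10.5PGC. The part of Gse1 in the Gins2 value was not tested. Ccne2 had 67.2 and 65.1 scaled TPM in PGC-1dMeioLC, against 28.3 and 28.3 in E10.5PGC. Pole2 had 18.04 and 13.9 in PGC-1dMeioLC, against 9.30 and 8.98 in E10.5PGC. In both genes the cultured libraries were above the fresh ones. Beside these changes, the germ cell markers summed to 1904 to 1933 in PGC-1dMeioLC and 6241 to 6244 in E10.5PGC, the fibroblast and stroma markers to 783 to 806 in PGC-1dMeioLC and 12.9 to 13.2 in E10.5PGC, and the gonadal somatic markers to 351 to 357 in PGC-1dMeioLC and 41.3 to 44.0 in E10.5PGC. Mgp and Foxl2 were at 0 in both E10.5PGC libraries. Most of the germ cell sum in E10.5PGC was Dppa3, with group means of 780 in PGC-1dMeioLC and 4916 in E10.5PGC. Of the 10 germ cell markers 2 were higher and 7 lower in PGC-1dMeioLC. Dazl averaged 849 in PGC-1dMeioLC and 471 in E10.5PGC. All 10 fibroblast and all 10 gonadal markers were called higher in PGC-1dMeioLC, and of 9 blood and endothelium markers 4 were higher and 2 lower, with Tyrobp averaging 143 in PGC-1dMeioLC and 13.4 in E10.5PGC and Cd68 130 and 7.02 in the same groups. Their part in the member changes was not tested.

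LT-1dMeioLC and PGC-1dMeioLC, the stem cell and embryo routes to the same culture, differed in fewer members. LT had 2 higher and 10 lower, where 8.32% and 13.8% of all genes were called, and as deposited 8 higher and 6 lower, with 13.4% and 8.25%. Gins2 at 0.61 and Rnaseh2a at 0.42 were higher on both scales. Cdc6 at −0.60, Mcm4 at −0.55 and Orc3 at −0.54 were lower on both. Rpa3 stood at −0.00 (SE 0.07).

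**Figure D5:**
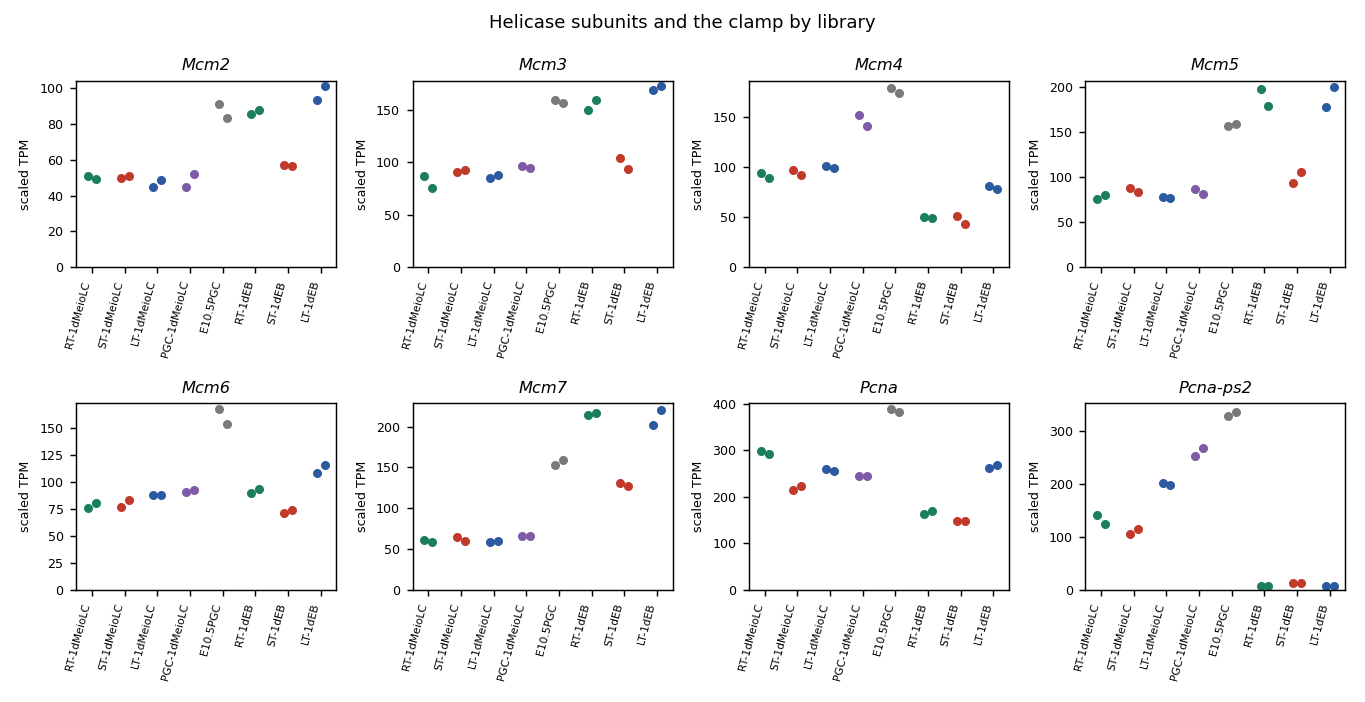
Scaled TPM of the 6 helicase subunits, Pcna and its near-identical copy Pcna-ps2 in each library, by group. Mcm7 is lower in the 1dMeioLC than in the 1dEB libraries of the lines, and Pcna-ps2 is at 105 to 336 in all libraries but those of 1dEB, where it is at 6.81 to 13.3.

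The levels of Mcm7 and Pcna carry an uncertainty of their own. Gm5487, annotated as a processed pseudogene, matched 2157 bases of the Mcm7 transcript at 97.7% identity. It has no values in the deposited TPM, so its part in the Mcm7 values is unknown. Pcna-ps2, annotated as a processed pseudogene, matched 781 bases of the Pcna transcript at 99.2% identity, and how reads were divided between them was not stated. Pcna-ps2 had 141 and 123 scaled TPM in RT-1dMeioLC, 105 and 115 in ST-1dMeioLC and 202 and 198 in LT-1dMeioLC. It had 252 and 269 in PGC-1dMeioLC and 328 and 336 in E10.5PGC, and 7.60 and 7.06 in RT-1dEB, 13.3 and 12.4 in ST-1dEB and 6.81 and 7.37 in LT-1dEB. At 1dEB it was thus a small addition to Pcna, which had 163 and 170 in RT, 148 and 147 in ST and 262 and 269 in LT. With both rows summed, LT had 463 and 453 at 1dMeioLC, against 269 and 276 at 1dEB. Pcna alone had 260 and 255 in LT at 1dMeioLC, against 262 and 269 at 1dEB. The summed rows at 1dMeioLC were 439 and 415 in RT and 320 and 337 in ST. RT was thus below LT at 1dMeioLC on the sum, while on Pcna alone RT was above it, at 298 and 292.

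Across the 8 groups, on scaled TPM, E10.5PGC had the highest mean for 19 members and LT-1dEB for 15, and ST-1dEB had the lowest for 15 and ST-1dMeioLC for 10. As deposited, E10.5PGC was highest for 31 members and LT-1dEB for 6, and RT-1dEB was lowest for 25, ST-1dMeioLC for 9 and ST-1dEB for 4. The same counts were not made over all genes, so they do not set these members apart. The widest ranges of scaled group means were those of Rpa3 (10.1-fold, highest in E10.5PGC and lowest in ST-1dEB) and Ccne1 (10.0-fold, highest in LT-1dEB and lowest in ST-1dMeioLC). As deposited Rpa3 ranged 18.8-fold and Rfc4 10.54-fold, both highest in E10.5PGC and lowest in RT-1dEB, Ccne2 9.39-fold and Ccne1 6.86-fold. On scaled TPM Mcm10 ranged 6.70-fold, Rfc4 5.70-fold, Cdc6 5.37-fold, Pold1 5.27-fold and Orc1 3.28-fold. Pold1 had 88.5 and 95.6 scaled TPM in RT-1dEB and 17.8 and 17.2 in LT-1dMeioLC. Orc5 had the narrowest range, 1.28-fold, with scaled group means of 18.2 to 23.3. Of the 43 members 18 share exon bases with another annotated gene and 8 share 10% or more with a single gene, Orc1, Orc2, Gins2, Ccne2, Rfc2, Rfc4, Rfc5 and Fen1, whose values are uncertain to that extent.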

How the data were processed

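RNA of 16 mouse libraries in 8 groups of 2 was compared. The authors deposited 1 table of TPM per gene symbol, made with tools that include RSEM, HISAT2, Bowtie2, DESeq2 and R 3.4.2 on mm10, per the submitters' processing notes, which give no roles. TPM keeps no depth, so depth per library is unknown. The table holds 16 columns with names of their own, which were used, and 12 columns with 6 repeated names, which were not.

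TPM was scaled so that the nuclear protein-coding genes of GENCODE M21 add up to 1000000 per library. log2(scaled TPM + 1) of the 21935 genes that reached 1 TPM in 2 or more libraries was fitted with limma 3.58.1 in R 4.3.3 (1 mean per group, trend, 8 residual degrees of freedom, no replicate block), and 2-sided p-values were adjusted by Benjamini-Hochberg over all of these genes within a comparison. Fold changes are on that log2 scale and understate changes of low genes. Standard errors are limma's. "Called" means an adjusted p under 0.05. The fit was run on simulated data with independent normal noise of the fitted spread. That run could not test for a batch or for the choice of scale. Over all genes kept, same-numbered libraries did not deviate together (correlations of −0.034 to 0.027). This cannot exclude a batch shared by part of the genes, and the labels do not say whether the numbers pair libraries.

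The members and companion lists were chosen with earlier results of these data known. All members may be named; values per library are given for the 3 highest and 3 lowest called members in ST against LT and the widest range in each role, and other genes shown per library were added after their values were seen. Up to 3 companions per list were named by size of change. The value of 1 companion gene is not reported here. Transcript copies were searched with blastn at 95% identity over 300 bases. Alternatives were TPM as deposited, a pseudocount of 0.1, no filter, a replicate block, only the groups compared, and leaving out each library.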

Additional observations from a re-analysis of the deposited data

Results flagged for a closer look

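The difference between the lines in the replication genes itself differed between the stages by a test of the difference itself (limma, adjusted p under 0.05). For ST minus LT the effect at 1dMeioLC was above that at 1dEB in 32 members and below it in 1, Orc4. Beside them 4150 and 4132 of all 21935 genes were called in those directions. As deposited the counts were 23 and 1, beside 2682 and 5789 of all genes. The Orc4 call was lost with no filter, with the replicate block, with only the groups compared and without any 1 of several single libraries. The members that differed by 1 or more on the log2 scale were Pold2 (1.69), Pole2 (1.51), Cdc6 (1.41), Prim2 (1.27), Gins1 (1.18), Rfc2 (1.13), Pola2 (1.11), Mcm5 (1.07), Gins2 (1.06) and Gins4 (1.01). For RT minus ST the effect at 1dMeioLC was above that at 1dEB in 6 members and below it in 16, beside 2736 and 4828 of all 21935 genes tested. As deposited it was above in 22 and below in 2, beside 7587 and 1677 of all genes, so the direction of this count depends on the scale. The member median was −0.35 scaled and 0.39 as deposited, beside −0.18 and 0.37 over all genes. Ccne1 (1.39) and Rpa2 (1.06) were higher and Mcm5 (−1.06) and Rfc2 (−1.15) lower by 1 or more, and those 4 kept their direction as deposited.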

How the results depend on the processing

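The count of members lower in ST than LT at 1dEB was 30 to 40 under every alternative, and the counts at 1dMeioLC were within 1.5 times of the ones reported except in the fit of only the groups compared (6 lower). On TPM as deposited, RT against ST at 1dEB had 2 higher and 21 lower, RT against LT at 1dEB 0 and 41, RT against ST at 1dMeioLC 1 lower, 1dMeioLC against 1dEB 17 higher in LT and 30 higher and 6 lower in RT, LT 1dMeioLC against PGC-1dMeioLC 8 and 6, and the stage difference of RT minus ST 22 and 2. Between the scales 8 members called in RT against ST at 1dEB, 10 in RT by stage and 2 in LT by stage were called in opposite directions. Among the members followed under every alternative, values that reversed there were those of Pcna (−0.47), Gmnn (−0.36) and Rpa3 (−0.41) in RT against ST at 1dEB, Orc3 (−0.15), Rfc2 (−0.17), Mcm7 (−0.42), Cdt1 (−0.42) and Pold1 (−0.36) in RT against LT at 1dEB, and Ccne1 (0.11) and Cdc6 (0.46) in RT by stage; by construction that setting keeps the unequal protein-coding shares.

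With only the groups compared in the fit, which leaves fewer samples for the spread, all genes called were 5642 (ST against LT), 4247 (RT against ST) and 4668 (RT against LT) at 1dEB, 3997, 2901 and 828 in the same order at 1dMeioLC, and 1966 for LT 1dMeioLC against PGC-1dMeioLC. Members were then 1 lower in RT against ST and 0 higher and 16 lower in RT against LT at 1dEB, 7 higher in RT against ST and 1 higher and 0 lower in RT against LT at 1dMeioLC, 2 higher in PGC-1dMeioLC against E10.5PGC, 0 higher and 5 lower in LT 1dMeioLC against PGC-1dMeioLC, and 0 lower in the stage difference of ST minus LT. With no filter, 1 member was higher in RT against LT at 1dEB, 1 lower at 1dMeioLC and 0 lower in the stage difference of ST minus LT. The replicate block gave 40 lower members in ST against LT at 1dEB and 13 lower and 4 higher at 1dMeioLC. It left 0 lower in the stage difference of ST minus LT, where Orc4 had been. The labels do not say whether its numbers pair samples.

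Leaving out 1 library gave 0 to 1 higher members in RT against LT at 1dEB, 1 to 6 lower in RT against ST at 1dMeioLC, 1 to 3 higher and 0 to 1 lower in RT against LT at 1dMeioLC, 6 to 9 lower in LT 1dMeioLC against PGC-1dMeioLC and 0 to 1 lower in the stage difference of ST minus LT. All genes called were then 4856 to 5925 in ST against LT and 1446 to 2253 in RT against LT at 1dMeioLC, and 2205 to 3114 in LT 1dMeioLC against PGC-1dMeioLC. Depth is unknown, each group has 2 libraries, and 1 library stands for a group in each of these fits, with its spread taken from the other groups.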
